A study of Homo sapiens with 5 samples.

Results

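A set of 10 genes of bone morphogenetic protein (BMP) signalling and osteoblast regulation were followed across a rising level of the transcription factor E2F1 in U2OS, a human osteosarcoma cell line. They were the ligand genes BMP2, BMP4 and GDF10, the receptor gene BMPR2, the inhibitor gene SMAD6, the target genes ID1, ID2, ID3 and MSX2, and the osteoblast regulator RUNX2. The genes were chosen by name, and all 10 of 10 were found among 27992 gene names with read counts and among 24519 with TPM values. RNA was sequenced from 5 libraries, with 1 library per group. Of these, 4 came from U2OS pTRIPZ-YFP-ER-E2F1 cells, sorted by flow cytometry on the fluorescence of the YFP-tagged fusion into 4 fractions, called YFP-negative, then in rising order low, medium and high. The remaining library came from parental U2OS cells, which lack the construct. Per the labels' protocols, all 5 groups were grown in 8% fetal bovine serum. The labels give doxycycline, which induces pTRIPZ vectors, at 500 ng/ml for 48 h to every group, with OHT, the ligand that activates ER fusions, added at 90 nM for 20 h more. YFP-negative cells therefore carried the construct and both agents, while parental cells received the agents alone. The labels do not say whether the construct line was 1 clone. The comparisons asked how each gene's RNA related to the level of the fusion.

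BMP ligands are secreted proteins of the TGF-beta superfamily that bind pairs of type I and type II serine/threonine kinase receptors. The type I receptor phosphorylates SMAD1, SMAD5 and SMAD9, which enter the nucleus with SMAD4 and switch on genes such as the ID family, MSX2 and the feedback inhibitor SMAD6. In bone the pathway drives mesenchymal precursors towards osteoblasts, in which RUNX2 is the master transcription factor.

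The libraries held 70715003 to 76525158 reads in genes. Levels are given in counts per 1000000 reads (CPM), scaled by TMM. E2F1 was at 86.1 (parental), 106 (YFP-negative), 163 (YFP-low), 361 (YFP-medium) and lastly 996 (YFP-high) CPM, so it followed the gates. Reads of the endogenous gene and of the construct are not separated in these counts. Of the osteoblast markers, COL1A1, SPARC, RUNX2, ALPL and SPP1 were read in all 5 libraries, at 4.65 CPM or more. SP7, BGLAP and IBSP, which mark committed and mature osteoblasts, had 0 to 7 reads in each library, and COL1A2 had 16 to 31 reads. The 16 markers of other cell types summed to 141 to 228 CPM, of which TUBB3 alone held 69.7 to 178 CPM. ADIPOQ had 0 reads in every library, and CD3E had 0 to 2. Of these 16 markers, 9 reached 1 CPM before scaling in at least 1 library. By the rule given below, 3 of the 9 were higher in YFP-high than in YFP-negative and 0 lower. Of all genes at that level, 20.3% were higher and 11.3% lower. The 3 were EPCAM, PPARG and MYOD1, with log2 ratios of 1.67, 1.16 and 3.22, and MYOD1 reached 1 CPM in YFP-high alone. The part of these markers in the values below was not tested. In pooled cells, fewer cells making an RNA and less RNA per cell cannot be told apart.

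The members fell into several patterns over the sorted fractions. BMP2 and ID2 had a higher level at each step of YFP, by more than counting error. GDF10, MSX2 and SMAD6 were also highest in YFP-high. ID1 and BMPR2 had a lower level at each step, and ID3 was highest in YFP-medium. RUNX2 and BMP4 varied least below YFP-high, which was also their highest fraction. In YFP-high against YFP-negative the ratio was 613 for GDF10, 12.9 for BMP2, 4.82 for MSX2, 4.34 for SMAD6 and 3.61 for ID2, and ID1 was 2.92-fold lower. These 6 were the calls there, a call being a log2 ratio of CPM plus 0.5 past 2-fold with 1 outside the 95% counting interval of the fold. With 1 library per group no test was possible and no difference has a replicate check. Intervals cover counting error only. For the 9 genes other than GDF10, 443 to 15151 reads per library set the upper counting error of a level at 1.61% to 9.76%.

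**Figure D1:**
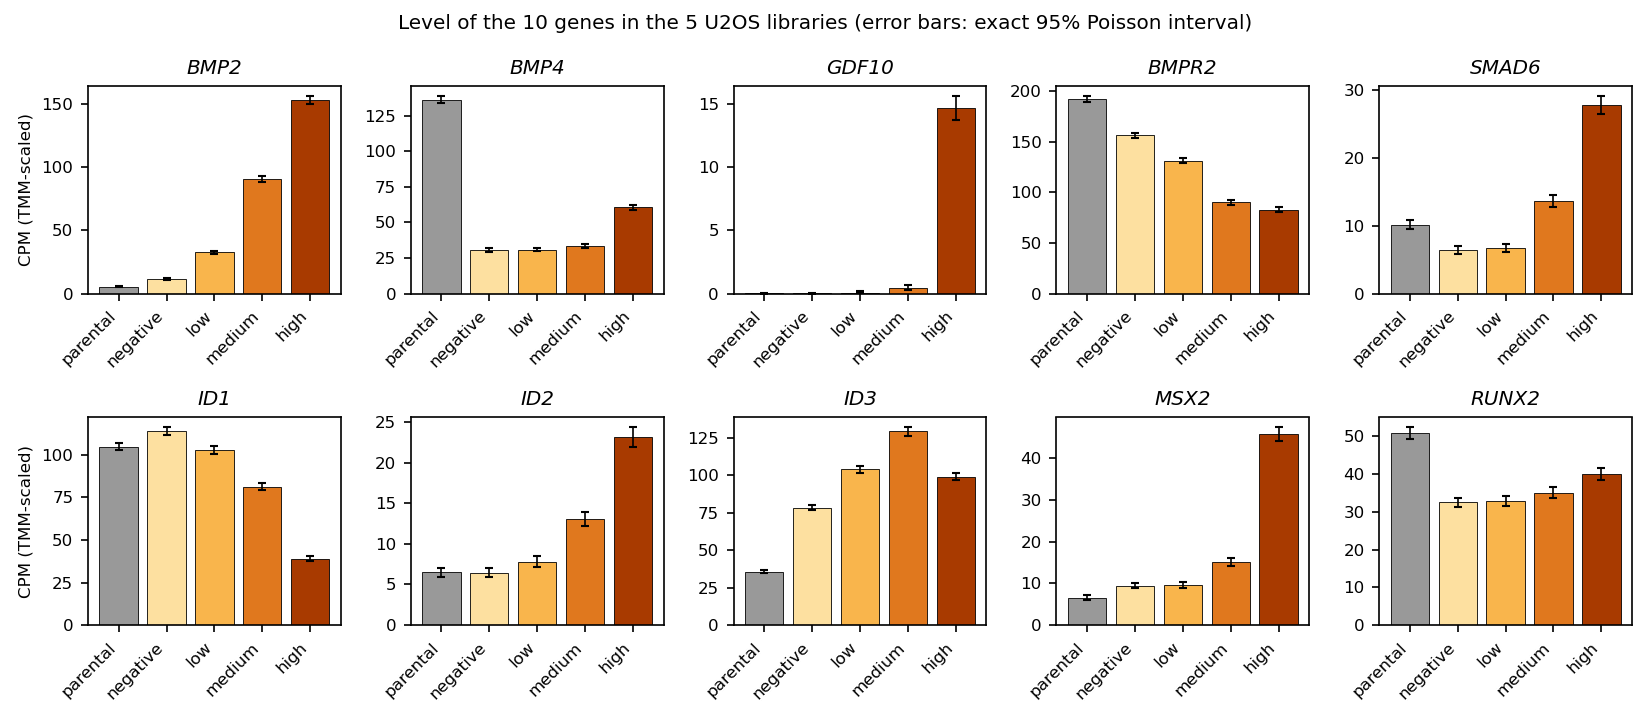
Level of each gene in TMM-scaled CPM (bars, linear axes from 0, a separate scale per gene) in the parental library and the 4 sorted fractions, ordered by YFP; error bars are exact 95% Poisson intervals. BMP2 is higher in each fraction than in the one before, GDF10 is near 0 outside YFP-high, and ID1 is lowest in YFP-high at 39.0 CPM.

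BMP2 encodes one of the most potent bone-inducing ligands of the family. It was at 5.62 (parental), 11.9 (YFP-negative), 32.6 (YFP-low), 90.5 (YFP-medium) and lastly 153 (YFP-high) CPM. The order of the 5 libraries was strict, and the interval of each neighbouring pair excluded a fold of 1. BMP2 was 2.74-fold higher in YFP-low than in YFP-negative (2.54 to 2.95). The fold over YFP-negative was 7.61 in YFP-medium (7.11 to 8.15) and reached 12.9 in YFP-high (12.1 to 13.8). Ranked from the top by log2 ratio among 15099 analysed genes, BMP2 stood at place 97 in YFP-low, at 45 in YFP-medium and at 169 in YFP-high. On the log2 scale without a pseudocount, 39.4% of the total lay between YFP-negative and YFP-low, 40.0% between YFP-low and YFP-medium, and 20.7% in the last step. The E2F1 gene itself had folds of 1.54, 3.41 and 9.39 over YFP-negative in the same 3 fractions. Those folds mix reads of the endogenous gene and of the construct. Parental cells, which lack the construct, already had 86.1 CPM of E2F1, against 106 CPM in YFP-negative. The fold of the fusion alone is therefore not known, and whether BMP2 rose more or less steeply than the fusion cannot be read from these values.

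BMP4 encodes the closest relative of BMP2 and binds the same receptors. Its level was 136 (parental), 30.7 (YFP-negative), 30.8 (YFP-low), 33.7 (YFP-medium) and lastly 60.5 (YFP-high) CPM. The parental library stood above every construct-bearing fraction. YFP-negative and YFP-low did not differ beyond counting error, with a fold of 1.01 (0.951 to 1.06). In YFP-high BMP4 had 1.97 times the YFP-negative level (1.88 to 2.07), a log2 ratio of 0.97 that lay just below the size rule. DESeq2 size factors put it at 1.00, just past the rule.

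GDF10, also called BMP3B, encodes a more distant ligand related to BMP3. It had 1 (parental), 2 (YFP-negative), 6 (YFP-low), 31 (YFP-medium) and lastly 939 (YFP-high) reads, the last equal to 14.7 CPM. It passed the filter of 1 CPM through YFP-high alone, so its difference there follows in part from that filter. The ratio of YFP-high to YFP-negative, 613 (169 to 5068), rests on 2 reads in YFP-negative. The ratio of YFP-high to YFP-medium was 32.1 (22.5 to 47.6) and that of YFP-medium to YFP-low 5.90 (2.42 to 17.3). The ratio of YFP-medium to YFP-negative, 19.1 (4.85 to 165), rests on the same reads, and its log2 ratio of 0.87 on CPM plus 0.5 was not called. YFP-low and YFP-negative could not be told apart at this depth, with a ratio of 3.23 (0.578 to 32.8).

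The ligands changed places within the cells. Levels of different genes are compared in the deposited TPM, which corrects for transcript length. BMP4 was at 38.3 times BMP2 in parental cells, 4.07 times in YFP-negative and 1.49 times in YFP-low. BMP2 was at 1.71 times BMP4 in YFP-medium and 1.61 times in YFP-high. A ratio of 2 genes within a library needs no scaling between libraries. In read counts, the BMP2 to BMP4 ratio was 6.54-fold higher in YFP-high than in YFP-negative (6.02 to 7.10) and 9.41-fold higher in YFP-negative than in parental cells (8.35 to 10.6). Between YFP-high and YFP-medium it was 0.944-fold (0.888 to 1.00), within counting error of no change. The summed TPM of the 3 ligand genes was 191 (parental), 52.7 (YFP-negative), 69.4 (YFP-low), 116 (YFP-medium) and lastly 211 (YFP-high). Parental and YFP-high cells thus had similar sums of different make-up: BMP2 held 58.3% of the sum in YFP-high, against 2.55% in parental cells, and GDF10 held 5.48% in YFP-high.

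**Figure D2:**
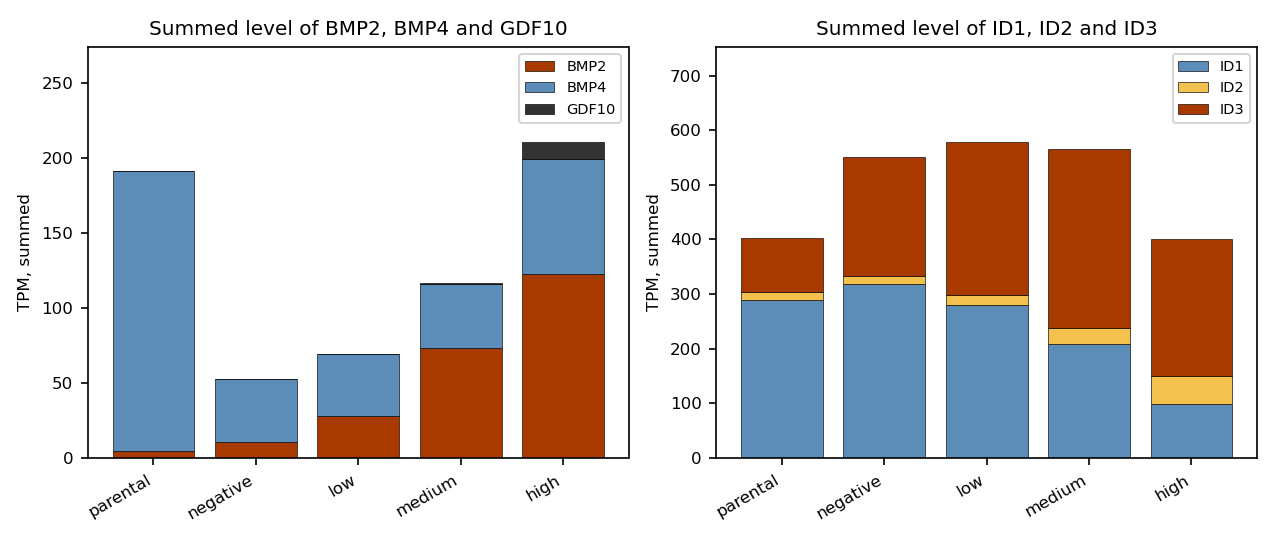
Summed deposited TPM (stacked bars, linear axis from 0) of the 3 ligand genes, left, and of ID1, ID2 and ID3, right, in each library. BMP4 makes up nearly all of the ligand sum in parental cells and BMP2 the largest share in YFP-high; ID1 holds the largest share of the ID sum in parental cells and ID3 in YFP-high.

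BMPR2 encodes the type II receptor dedicated to BMP ligands. Its level was 192 (parental), 156 (YFP-negative), 131 (YFP-low), 90.1 (YFP-medium) and lastly 82.8 (YFP-high) CPM. Each library was below the one before, and the interval of every neighbouring pair excluded a fold of 1. YFP-high held 1.89-fold less BMPR2 than YFP-negative (1.83 to 1.95), a log2 ratio of -0.91 that did not pass the size rule. It passed at -1.18 with total-count scaling and at -1.02 with the deposited TPM. Of the total log2 difference 59.3% lay between YFP-low and YFP-medium. In TPM, BMP2 was at 7.83 times BMPR2 in YFP-high, whereas in YFP-negative BMPR2 was at 3.11 times BMP2.

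SMAD6 encodes an inhibitory SMAD that blocks BMP receptors and is itself induced by BMP. Its level was 10.2 (parental), 6.41 (YFP-negative), 6.72 (YFP-low), 13.7 (YFP-medium) and lastly 27.8 (YFP-high) CPM. YFP-negative and YFP-low did not differ beyond counting error, and each later fraction stood above the one before. SMAD6 exceeded its YFP-negative level 2.13-fold in YFP-medium (1.92 to 2.38) and 4.34-fold in YFP-high (3.93 to 4.78). The YFP-medium call was lost with total counts, at a log2 ratio of 0.83, with a pseudocount of 2 CPM, at 0.90, and with the deposited TPM, at 0.92.

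The ID genes encode helix-loop-helix proteins without a DNA-binding domain, which trap other helix-loop-helix factors and hold back differentiation. They are textbook immediate targets of BMP-activated SMADs, yet here the 3 members did not move together. ID1 had 105 (parental), 114 (YFP-negative), 103 (YFP-low), 81.3 (YFP-medium) and lastly 39.0 (YFP-high) CPM. It fell in YFP-high, to a level 2.92-fold below YFP-negative (2.79 to 3.05), and 68.6% of the log2 difference lay in the step above YFP-medium. It was the only member called lower in YFP-high with TMM scaling. ID2 had 6.48 (parental), 6.40 (YFP-negative), 7.82 (YFP-low), 13.0 (YFP-medium) and lastly 23.1 (YFP-high) CPM. It rose in YFP-high, to 3.61 times the YFP-negative level (3.27 to 4.00), and the interval of each of the 3 steps excluded a fold of 1. ID3 had 35.8 (parental), 78.6 (YFP-negative), 104 (YFP-low), 129 (YFP-medium) and lastly 99.2 (YFP-high) CPM. YFP-medium held the highest ID3 level, 1.65 times that of YFP-negative (1.59 to 1.70), and YFP-high had 0.767 times the YFP-medium level (0.743 to 0.793). None of the ID3 differences between sorted fractions passed 2-fold.

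Within the same libraries, ID1 and ID3 exchanged rank. ID1 was at 2.95 times ID3 in TPM in parental cells and at 1.46 times in YFP-negative, and both were nearly equal in YFP-low, at 279 and 281 TPM. ID3 was at 1.58 times ID1 in YFP-medium and 2.52 times in YFP-high. In read counts the ID3 to ID1 ratio was 3.68-fold higher in YFP-high than in YFP-negative (3.48 to 3.90), and the ID2 to ID1 ratio was 10.5-fold higher (9.45 to 11.7). The summed TPM of the 3 ID genes was 402 (parental), 551 (YFP-negative), 579 (YFP-low), 566 (YFP-medium) and lastly 402 (YFP-high). ID1 held 24.8% of the sum in YFP-high, against 57.7% in YFP-negative, while ID2 held 12.8% in YFP-high, against 2.82% in YFP-negative.

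The stretches before the transcription starts of the ID genes are shown because these 3 genes diverged, together with that of GDF10, the member with the largest ratio. They are the 250 bases upstream of the RefSeq start, 5′ to 3′ on the gene's strand, in build GRCh38.p14. Capitals mark, on either strand, the GC-rich SMAD-binding motif GGCGCC. They also mark the box motif CCAAT. The core of the TATA box, TATAA, is in capitals too. On the opposite strand CCAAT reads ATTGG.
GDF10, chr10:47299947-47300196, plus strand: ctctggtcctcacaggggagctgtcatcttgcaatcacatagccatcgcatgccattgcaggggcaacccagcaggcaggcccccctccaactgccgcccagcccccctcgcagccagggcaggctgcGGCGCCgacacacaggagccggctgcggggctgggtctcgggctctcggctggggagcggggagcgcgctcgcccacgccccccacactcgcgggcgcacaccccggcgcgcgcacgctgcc
ID1, chr20:31605039-31605288, plus strand: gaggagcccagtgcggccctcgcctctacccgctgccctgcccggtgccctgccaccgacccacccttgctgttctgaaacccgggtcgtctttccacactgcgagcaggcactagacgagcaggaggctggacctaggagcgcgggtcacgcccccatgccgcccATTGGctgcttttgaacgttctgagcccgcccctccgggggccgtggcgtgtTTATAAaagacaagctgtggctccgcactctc
ID2, chr2:8681806-8682055, plus strand: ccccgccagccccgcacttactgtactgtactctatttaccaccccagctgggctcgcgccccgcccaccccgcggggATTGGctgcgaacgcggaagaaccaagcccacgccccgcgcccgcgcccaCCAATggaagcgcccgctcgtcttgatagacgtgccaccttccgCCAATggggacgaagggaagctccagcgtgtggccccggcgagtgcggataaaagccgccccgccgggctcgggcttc
ID3, chr1:23559502-23559751, minus strand: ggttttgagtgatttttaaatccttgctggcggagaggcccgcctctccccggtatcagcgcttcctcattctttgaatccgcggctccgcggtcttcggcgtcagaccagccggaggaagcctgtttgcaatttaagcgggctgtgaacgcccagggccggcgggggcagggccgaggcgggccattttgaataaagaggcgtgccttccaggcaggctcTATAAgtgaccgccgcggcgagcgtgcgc

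RefSeq promoter windows of 300 bases were matched for 9 of the 10 genes, all but BMP2. The E2F motif, searched on both strands as TTTCCCGC, TTTGGCGC, TTTCGCGC and TTTGCCGC, was found in 0 of the 9 and in 3.31% of all 35116 windows. GGCGCC was found in 4 of the 9 (BMP4, GDF10, BMPR2 and RUNX2) and in 19.2% of all windows. CCAAT and TATAA were added after the sequences had been seen. CCAAT was in 4 of the 9, among them ID1 and ID2, and in 34.6% of all windows. TATAA was in 4, among them ID1 and ID3, and in 20.4% of all windows. In ID1 the TATAA lay 31 bases before the start and in ID3 29 bases. In ID2 CCAAT lay 122 and 78 bases before the start and, on the opposite strand, 172 bases before it. In ID1 the single CCAAT was on the opposite strand, 84 bases before the start, and in GDF10 the GGCGCC lay 122 bases before it. TTTGGCGC and GGCGCC share letters and can overlap, and TATAA and its reverse complement overlapped in ID1 and MSX2. BMP4 and RUNX2 have several start sites among the windows, and a motif in any window was counted. The 9 members were thus counted by gene, whereas the shares of all were counted by window. A gene with more windows has more places for a match, so the counts and shares are not like for like.

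MSX2 encodes a homeobox factor of skull bone and tooth growth that BMP induces. Its level was 6.50 (parental), 9.47 (YFP-negative), 9.63 (YFP-low), 15.1 (YFP-medium) and lastly 45.7 (YFP-high) CPM. YFP-high stood well apart from the other libraries, and YFP-low and YFP-negative were within counting error. MSX2 was 4.82-fold higher in YFP-high than in YFP-negative (4.46 to 5.22) and 3.03-fold higher than in YFP-medium (2.82 to 3.26), so 70.4% of the log2 difference lay in the last step.

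RUNX2 had 50.7 (parental), 32.5 (YFP-negative), 32.9 (YFP-low), 35.1 (YFP-medium) and lastly 39.9 (YFP-high) CPM. The 4 fractions spanned 1.23-fold and the parental library stood above them all. Against YFP-negative, YFP-low had a log2 ratio of 0.02, YFP-medium one of 0.11 and YFP-high one of 0.29, and total-count scaling turned the first 2 to -0.08 and -0.11 and the last to 0.02. The sign below YFP-high thus depended on the scaling. YFP-high stood above YFP-negative under all 4 scalings, at 0.02 to 0.33, and above YFP-medium at 0.18 with TMM, 0.13 with total counts, 0.22 with DESeq2 size factors and 0.16 with the deposited TPM. None of these ratios was called. In GENCODE 29 the RUNX2 locus overlaps SUPT3H on the opposite strand, with 0 shared exonic bases. ID2 shares 38 exonic bases with the antisense gene ID2-AS1, which is no row of the counts, and whether reads were counted by strand is not stated in the labels.

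In YFP-low, 1 of the 10 members was called higher, BMP2, and 0 lower, against 2.11% of all 15099 analysed genes higher and 0.0596% lower, 2.17% in all. In YFP-medium 2 were higher, BMP2 and SMAD6, and 0 lower, against 9.76% higher and 2.23% lower, 12.0% in all. Total-count scaling gave 1 higher and 1 lower there, with BMPR2 at -1.01. In YFP-high 5 were higher, BMP2, GDF10, SMAD6, ID2 and MSX2, and 1 lower, ID1, against 20.3% higher and 11.3% lower, 31.6% in all. Total-count scaling and the deposited TPM gave 5 higher and 2 lower, with BMPR2 the added lower gene. Over all analysed genes the split of calls also moved with scaling. For YFP-high it was 3062 higher and 1712 lower with TMM, 2415 and 2865 with total counts, and for YFP-medium 1473 and 337 with TMM, 1084 and 784 with total counts and 1220 and 491 with the deposited TPM. The members' median log2 ratio was 0.04 for YFP-low, 0.68 for YFP-medium and 1.37 for YFP-high. That of all analysed genes was -0.02 for YFP-medium and -0.05 for YFP-high, and 0.00 to 2 decimals for YFP-low. These 3 comparisons share the YFP-negative library. Between neighbouring fractions, YFP-medium against YFP-low gave 1 higher, BMP2, and 0 lower, against 2.70% and 0.185% of all genes, 2.88% in all. YFP-high against YFP-medium gave 2 higher, GDF10 and MSX2, and 1 lower, ID1, against 9.14% and 1.32%, 10.5% in all. DESeq2 size factors added SMAD6 as higher there. GDF10 passed the filter of 1 CPM through YFP-high alone. No count or median of members in YFP-high is therefore independent of that filter, whichever library YFP-high is set against.

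**Figure D3:**
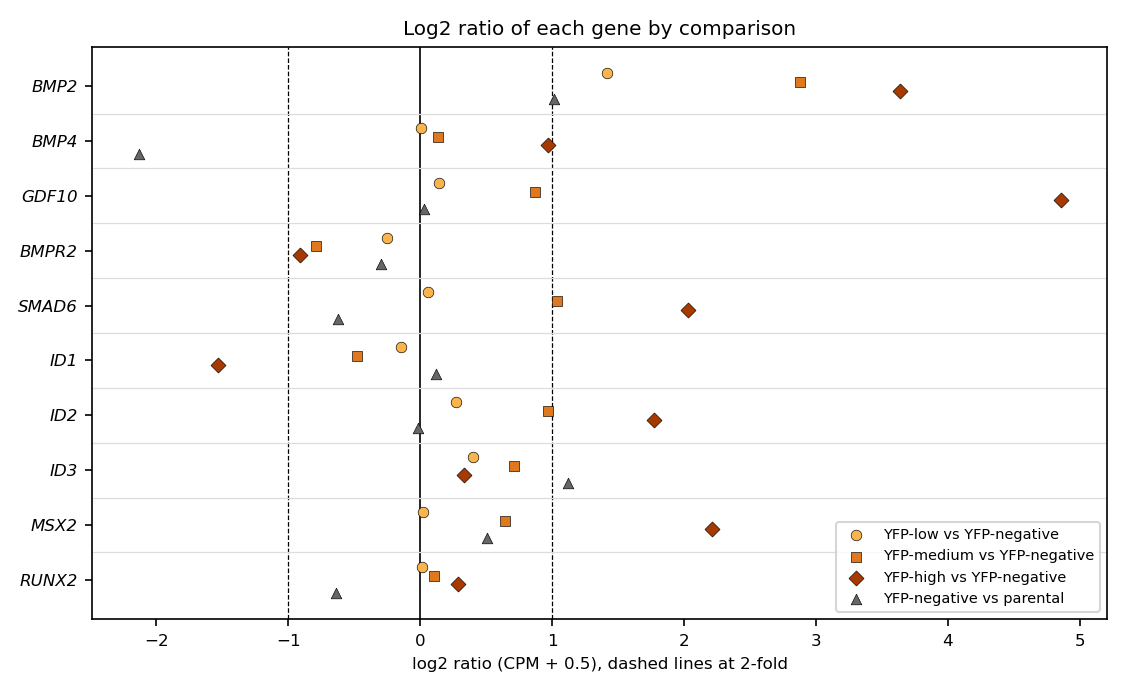
Log2 ratio of each gene (CPM plus 0.5) in YFP-low, YFP-medium and YFP-high over YFP-negative, and in YFP-negative over parental cells; dashed lines mark 2-fold. In YFP-high BMP2, GDF10, SMAD6, ID2 and MSX2 lie right of the upper line and ID1 left of the lower one; BMP4 lies at -2.13 in YFP-negative over parental cells.

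**Figure D4:**
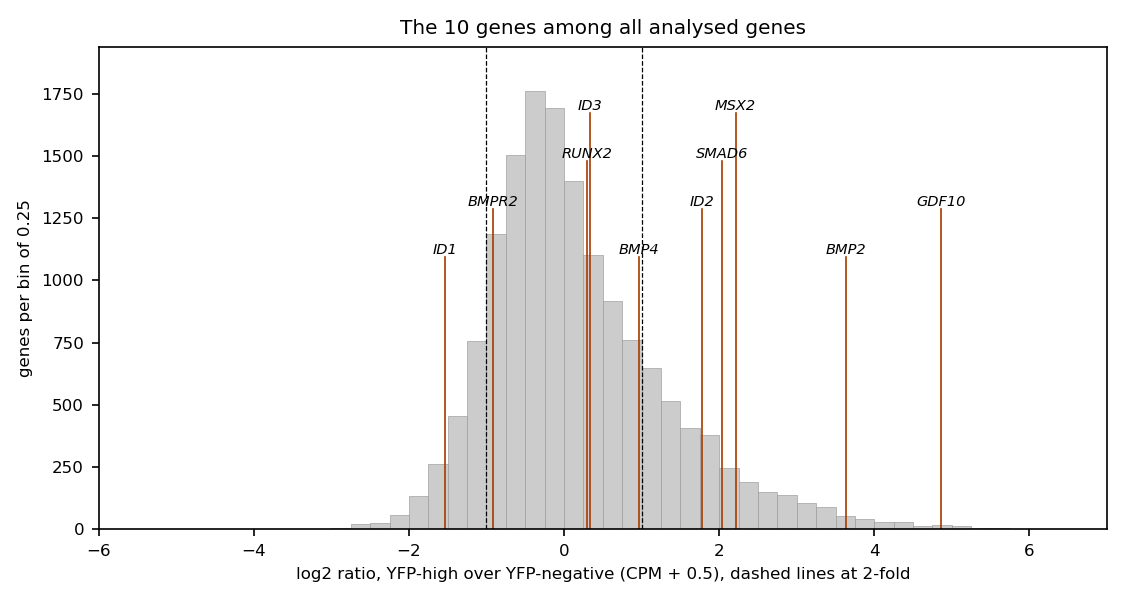
Histogram of the log2 ratio of YFP-high over YFP-negative for all 15099 analysed genes, in bins of 0.25, with the 10 genes marked by lines whose heights carry no value; dashed lines mark 2-fold. GDF10 at 4.86 and BMP2 at 3.64 lie in the upper tail, ID1 at -1.53 in the lower tail, and RUNX2 and ID3 near the bulk of genes.

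By TMM, 7 of the 10 genes had values that were higher in each sorted fraction than in the one below it, against 24.0% of all analysed genes, and 2 were lower in each, against 28.0%. Of these, the intervals of all 3 steps excluded a fold of 1 for BMP2 and ID2 on the higher side and BMPR2 and ID1 on the lower side. The number higher at every step was 3 with total counts, 6 with DESeq2 size factors and 4 with the deposited TPM. BMP2, GDF10 and ID2 were among them each time, and GDF10 passed the filter through YFP-high alone. The share of all genes was counted for TMM only, so the numbers under the other scalings have no background beside them. BMPR2 and ID1 were the genes lower at every step under all 4 scalings. By TPM the order of the members also differed between the ends of the range. In YFP-high ID3 led with 251 TPM, followed by BMP2 at 123, ID1 at 99.4, BMP4 at 76.4, MSX2 at 55.2, ID2 at 51.2, SMAD6 at 22.2, RUNX2 at 15.8, BMPR2 at 15.7 and GDF10 at 11.5 TPM. In YFP-negative ID1 led with 318 TPM, followed by ID3 at 218, BMP4 at 42.3, BMPR2 at 32.3, ID2 at 15.5, RUNX2 at 14.1, MSX2 at 12.5, BMP2 at 10.4, SMAD6 at 5.60 and GDF10 at 0.0206 TPM. BMP2 thus stood second in YFP-high, and RUNX2 and BMPR2 were level there.

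Cells without a YFP signal already differed from parental cells in some members. BMP2 was 2.12-fold higher in YFP-negative (1.89 to 2.37), ID3 2.19-fold higher (2.10 to 2.29) and BMP4 4.45-fold lower (4.26 to 4.64). Thus 2 members were called higher and 1 lower, against 2.17% and 2.93% of all genes, 5.09% in all. The BMP2 call was lost with a pseudocount of 2 CPM, at a log2 ratio of 0.87. RUNX2 and SMAD6 had log2 ratios of -0.63 and -0.62, and MSX2 of 0.51. Set against parental cells in place of YFP-negative, YFP-high had 6 members higher and 3 lower, against 21.1% and 15.0% of all genes, 36.1% in all. BMP4 was then lower in YFP-high, at -1.17, and ID3 higher, at 1.46. The fold of BMP2 over parental cells was 27.3 (24.8 to 30.1).

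The rest of the pathway was read in 6 lists, which hold no member. Counts of calls in YFP-high are set beside the 20.3% higher and 11.3% lower, with a median log2 ratio of -0.05, of all 15099 analysed genes. Of 17 other ligand genes 9 were analysed. In YFP-high 4 were higher and 1 lower than in YFP-negative (all genes 20.3% and 11.3%), with a median log2 ratio of 0.73. Of these 9, 1 passed the filter of 1 CPM through YFP-high alone, so this list is not independent of that filter. BMP3, the closest relative of GDF10, was at 34.2 CPM in YFP-high against 0.468 CPM in YFP-negative, a ratio of 73.1 (53.3 to 103). GDF7, known in mouse as a ligand of the developing spinal cord, was 33.3-fold higher (25.2 to 44.8), BMP6 6.20-fold (5.61 to 6.86) and BMP7 5.93-fold (5.39 to 6.52). BMP3, like GDF10, stayed below 3 CPM outside YFP-high. BMP5, named after its values were seen, was the lower gene, 2.89-fold (2.68 to 3.12).

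Of 11 other receptor and coreceptor genes 9 were analysed, with 4 higher and 1 lower (all genes 20.3% and 11.3%) and a median of 0.93 (all genes -0.05). BAMBI, a decoy receptor that lacks the kinase and is itself a BMP target, was 6.01-fold higher (5.55 to 6.51), the coreceptor RGMA 5.00-fold (4.70 to 5.33), the type I receptor BMPR1A 2.94-fold (2.85 to 3.03) and the type II receptor ACVR2A 2.30-fold (2.14 to 2.47). BMPR1A had 193 CPM in YFP-high against 65.6 CPM in YFP-negative, whereas BMPR2 had 82.8 and 156 CPM in the same libraries. ENG, the endoglin coreceptor, chosen after its value was seen, was 2.03-fold lower (1.91 to 2.16), on the edge of the rule. Total counts gave 3 higher and 2 lower, and DESeq2 size factors 4 and 0.

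Of 18 antagonist genes 12 were analysed, with 6 higher and 2 lower (all genes 20.3% and 11.3%) and a median of 0.94. Of these 12, 1 passed the filter through YFP-high alone, so this list is not independent of that filter. The share lower was near that of all genes. FST, which encodes follistatin, a trap for activin and some BMPs, was 5.96-fold higher (5.73 to 6.21) and was already higher in YFP-low, at 1.53. CHRD, encoding the BMP trap chordin, was 4.91-fold higher (4.54 to 5.32) and its relative CHRDL1 3.32-fold (2.99 to 3.68). NOG, encoding noggin, which binds BMP2 and BMP4, fell by 1.55 on the log2 scale, 2.96-fold (2.81 to 3.11), with 29.6 CPM in YFP-high against 87.6 CPM in YFP-negative. The other lower gene, FSTL3, was named after its values were seen, at -1.40. Total counts gave 4 higher and 2 lower antagonists, and the deposited TPM 3 and 2.

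All 11 of the other SMAD genes and regulators were analysed, with 4 higher and 0 lower (all genes 20.3% and 11.3%) and a median of 0.60. SKI, encoding a corepressor of SMADs, was 4.21-fold higher (4.10 to 4.33). SMAD1, a signal carrier of BMP receptors, was 2.78-fold higher (2.63 to 2.94), SMAD9, another of them, 2.57-fold (2.32 to 2.86) and the inhibitory SMAD7 2.04-fold (1.94 to 2.16). Total counts and the deposited TPM each left 3 higher. Of 12 other target genes 6 were analysed, 5 of them higher and 1 lower (all genes 20.3% and 11.3%), and the median log2 ratio was 2.63 (all genes -0.05). ID4, the remaining ID gene, was 11.4-fold higher (10.5 to 12.5), with 3.49 (parental), 6.86 (YFP-negative), 13.7 (YFP-low), 37.3 (YFP-medium) and lastly 78.5 (YFP-high) CPM. ATOH8 was 10.9-fold higher (9.45 to 12.7), GATA2 22.5-fold (15.0 to 35.2) and DLX3 9.56-fold (6.27 to 15.2). Both GATA2 and DLX3 were below 1 CPM in YFP-negative and passed the filter through YFP-high, so neither the count nor the median of this list is independent of that filter. GATA3, named after its values were seen, was the lower target, at -1.06.

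Of 18 other osteoblast genes 10 were analysed, with 3 higher and 2 lower (all genes 20.3% and 11.3%) and a median of -0.36. Both shares of this list rest on few genes. CBFB, encoding the partner subunit of RUNX2, was higher by a log2 ratio of 1.85, at 534 CPM in YFP-high against 148 CPM in YFP-negative. ZNF521, a repressor of RUNX2 activity in mouse osteoblasts, was 5.38-fold higher (4.72 to 6.16). TNFRSF11B, encoding the osteoclast inhibitor osteoprotegerin, was 4.75-fold lower (4.16 to 5.45), and SOX9, the cartilage regulator, 4.29-fold lower (4.09 to 4.50). The bone matrix genes COL1A1 and SPARC had log2 ratios of -0.74 and -0.34, and ALPL of -0.38. These 3 were named as osteoblast markers and not by the size of their ratios, and none was called. RUNX2, also such a marker, had a log2 ratio of 0.29, and that of the marker SPP1 is not given here. COL1A1, SPARC and ALPL do not stand for all the markers, nor for all 10 analysed genes, of which 3 were higher. Total counts gave 2 higher and 3 lower osteoblast genes.

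**Figure D5:**
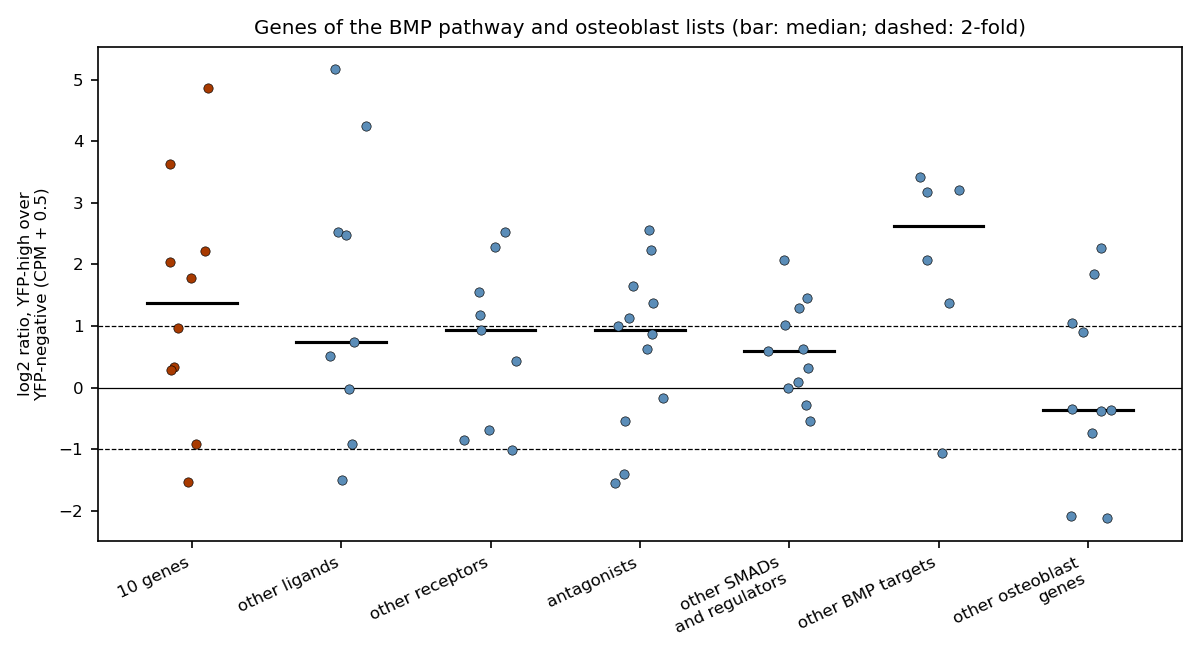
Log2 ratio of YFP-high over YFP-negative (CPM plus 0.5) for every analysed gene (points, spread sideways at random) of the 10 genes and the 6 lists; thick bars are medians of the analysed genes and dashed lines mark 2-fold. Points of most lists lie on both sides of 0, from BMP3 at 5.16 to TNFRSF11B at -2.12.

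For the 6 members called in YFP-high, the genes of most similar profile were found by the root mean square difference of log2 CPM over the 5 libraries, each profile centred on its mean. For BMP2 these were PLCL2, TCHH and MESP1, at 0.11, 0.13 and 0.13. PLCL2 had 9.81 (parental), 17.9 (YFP-negative), 46.9 (YFP-low), 129 (YFP-medium) and lastly 209 (YFP-high) CPM. For GDF10 they were HRH3, KIAA1199 and RTN4RL1, at 0.16, 0.17 and 0.19, for SMAD6 SLCO4C1, REEP2 and PTCH1, at 0.07, 0.10 and 0.11, and for MSX2 FAM8A1, SIM2 and HOXD1, at 0.06, 0.06 and 0.09. ID1 was closest to DAB2, DCAF8 and TRMT12, at 0.05 each, and ID2 to EIF2C4, GDPD3 and EIF4E3, at 0.03, 0.05 and 0.05. No gene was named for more than 1 member.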

How the data were processed

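RNA of 5 U2OS libraries was sequenced, 1 per group. Raw, unscaled counts of reads by gene name were deposited by the authors, with TPM, a length-corrected share of transcripts, which sum to 1000000 per library. The submitters' processing notes list, for reads, CASAVA 1.8.2 and bcl2fastq, Trimmomatic 0.36, and for mapping and counting HISAT2 2.0.3 with HTSeq 0.6.0 on hg19, without order or settings. For annotation, strand setting and TPM tool, the sources used here give no name.

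The 5 HTSeq rows and the row without a gene name were left out; genes held 75.7% to 77.7% of counted reads, and the unnamed row at most 0.00073%. Counts were scaled by TMM over all genes (edgeR 4.0.16, R 4.3.3), and the 15099 genes with at least 1 unscaled CPM in 1 library were analysed. Log2 ratios used a pseudocount of 0.5 CPM, which understates changes of low genes. Folds carry exact 95% Clopper-Pearson intervals on both counts given their total, and intervals of a ratio of 2 genes use the normal approximation on the log scale. Reads copied by PCR are not independent, so intervals may be too narrow. No test across samples was possible.

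The members, lists and alternatives were chosen with earlier results of these data known. Named genes are the members, the markers of cell types, the 3 nearest profiles of each called member, and E2F1. Up to 4 genes per list are named too. They have the largest absolute log2 ratio of YFP-high over YFP-negative and at least 1 CPM in either library. Others are said to be named after their values were seen. Promoter sequences are RefSeq's, build GRCh38.p14, matched by symbol, and locus overlaps are from GENCODE 29; neither is the files' build, so no coordinate was joined to the counts. Other settings tried were the scaling (size factors of DESeq2 1.42.0, or the total of gene counts), the filter (none, or 5 CPM), the pseudocount (2 CPM), the values (deposited TPM, judged by size only), the size rule (1.5-fold) and the baseline (parental cells). Python 3.11.15 was used with scipy 1.17.1, pandas 2.3.3, numpy 2.4.6 and matplotlib 3.10.9.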

Additional observations from a re-analysis of the deposited data

How the results depend on the processing

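No paired analysis was possible because each group has 1 library. The number of members called in YFP-high stayed within 1.5 times under every alternative run, at 6 to 9. The members called were not the same throughout: the parental baseline added BMP4 and BMPR2 as lower and ID3 as higher. The number was 6 with a pseudocount of 2 CPM (23.7% of all analysed genes called) and 7 with DESeq2 size factors (31.6%). It was also 7 with total counts (35.0%) and the deposited TPM (31.7%). It was 8 with the 1.5-fold rule (54.6%) and 9 with the parental baseline (36.1%). In YFP-medium it was 2, and 1 with a pseudocount of 2 CPM (8.65% of all analysed genes called), 1 with the deposited TPM (11.4%), 7 with the 1.5-fold rule (30.9%) and 5 with the parental baseline (20.6%). In YFP-low it was 1, and 3 with the parental baseline (10.4%). The 1.5-fold rule gave 5 in place of 1 for YFP-medium against YFP-low (13.2% of all analysed genes), 7 in place of 3 for YFP-high against YFP-medium (28.5%), and 5 in place of 3 for YFP-negative against parental cells (15.7%). No called log2 ratio of a member changed sign. Of the 60 member log2 ratios, 32 moved beyond counting error with total counts, 19 with the deposited TPM, 9 with a pseudocount of 2 CPM and 0 with DESeq2 size factors; of the 30 against YFP-negative, 24 moved with the parental baseline. Relative to TMM, the all-gene median shifted with total counts (-0.26 for YFP-high, -0.20 for YFP-medium, -0.11 for YFP-medium against YFP-low, -0.22 for YFP-high against parental cells) and with the deposited TPM (-0.12 for YFP-high, -0.11 for YFP-medium, -0.10 for YFP-high against parental cells). Over all genes, total counts called 2415 higher and 2865 lower in YFP-high, against 3062 and 1712 with TMM. Depth limits GDF10 below YFP-medium, where 3 reads equal 0.036 to 0.0388 CPM.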
